A study of Mus musculus with 7 samples.

Results

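The opioid receptors are a family of 4 closely related G protein-coupled receptors, and all 4 genes were present in the deposited tables: Oprm1 (the mu receptor), Oprk1 (kappa), Oprd1 (delta) and Oprl1 (the nociceptin receptor). Their rows were found by gene symbol, as 4 of the 32285 genes counted, and the rule used no measured value, although the family was chosen with earlier results of these data known. The data were single-nucleus RNA-seq of the posterolateral cortical amygdala (plCoA), a part of the amygdala that receives direct input from the olfactory bulb, dissected separately into its anterior (aplCoA) and posterior (pplCoA) domain. All animals were wild-type male C57BL6J mice, 8 weeks old, single-housed and held in sensory deprivation before they were killed, and no group received an odor or any experimental treatment. By the paper's methods, mice were anesthetized with ketamine and xylazine before they were killed. Tissue was pooled over several mice for each replicate, there were 3 replicates per domain, aplCoA replicate 1 was sequenced as 2 libraries, and nuclei were sorted by the DNA dye DRAQ7. A replicate is therefore a pool of males of 1 strain and 1 age, and differences between single animals cannot be seen.

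Opioid receptors couple to inhibitory Gi and Go proteins, through which they lower cyclic AMP, open potassium channels of the GIRK family and hold back presynaptic calcium channels, so that a neuron carrying them fires less or releases less transmitter when they are bound. Their ligands are peptides cut from 4 precursors: enkephalins from Penk, dynorphins from Pdyn, beta-endorphin from Pomc and nociceptin from Pnoc. In cortex and amygdala the mu and delta receptors are known for their presence on inhibitory interneurons as well as on principal neurons, the kappa receptor for its link to stress and aversion, and the nociceptin receptor for its distance in ligand binding from the other 3.

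The genes lie on separate chromosomes of the mouse build GRCm38 (mm10). Oprm1 (ENSMUSG00000000766) spans 279693 bases on the plus strand of chromosome 10, from 6758506 to 7038198. Oprk1 (ENSMUSG00000025905) is on chromosome 1 from 5588466 to 5606131, Oprd1 (ENSMUSG00000050511) on the minus strand of chromosome 4 from 132110726 to 132144486, and Oprl1 (ENSMUSG00000027584) on chromosome 2 from 181715016 to 181720985. Reads of exons and introns were both counted, so a long gene such as Oprm1 had more sequence to be counted from than Oprl1 with its span of 5970 bases, and levels are compared here between cells and replicates of 1 gene and not between receptors. Ipcef1 (ENSMUSG00000064065) overlaps Oprm1 on the opposite strand over 152403 bases, and whether strand was used in counting is not stated in the sources used here, so the values of Ipcef1 are given beside those of Oprm1 where both were high.

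After filtering, 46412 nuclei remained, 27361 from aplCoA and 19051 from pplCoA, with 4033 to 9705 nuclei per library and a median of 5147 to 6754 unique molecules (UMIs) per nucleus. They fell into 12 classes by markers, of which 20058 nuclei (43.2%) were glutamatergic and 5076 (10.9%) GABAergic, and the mural and endothelial classes with 37 and 8 nuclei were left out of the levels. There were 265 cell barcodes kept in more than 1 library. The level of a gene is given in CPM, its UMIs summed over the nuclei of a class in 1 replicate and divided by all UMIs of those nuclei, times 1000000, with the mean ± SD over 6 replicates. Because a level in a class is an average over its nuclei, fewer nuclei with a receptor and less receptor RNA per nucleus cannot be told apart from it.

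Oprm1 was mainly a neuronal transcript, with its highest class level in glutamatergic nuclei. Glutamatergic nuclei held 45017 Oprm1 UMIs, and their level was 127, 124 and 165 CPM in aplCoA replicates 1 to 3 and 201, 228 and 197 CPM in pplCoA (174 ± 42.4). GABAergic nuclei had 71.4, 74.6 and 86.3 CPM in aplCoA and 95.6, 111 and 87.3 CPM in pplCoA (87.7 ± 14.4, SD, n = 6), from 3767 UMIs. The replicates of the 2 neuronal classes did not overlap, and glutamatergic nuclei carried 91.6 ± 1.35% of all Oprm1 UMIs. They were also the larger class, with a mean of 42.7% of the nuclei of a replicate, and had more UMIs per nucleus. The part of class size and depth in that share was not tested. On average over replicates, as for the other shares of nuclei with a receptor UMI, a UMI of Oprm1 was found in 71.6% of glutamatergic and 34.7% of GABAergic nuclei as sequenced, at medians of 12542 and 7983 UMIs per nucleus, and in 27.95% and 15.0% after every nucleus was thinned to 2000 UMIs. Most non-neuronal classes lay far lower: oligodendrocyte precursors (OPC) at 3.33 ± 2.02 CPM, astrocytes at 2.78 ± 1.58 CPM, and newly formed oligodendrocytes (NFOL), vascular leptomeningeal cells (VLMC), mature oligodendrocytes (MOL) and arachnoid barrier cells (ABC) at or under 2.75 CPM with overlapping replicates. In astrocytes 0.961% of nuclei had an Oprm1 UMI, and in ABC 0.242%, at medians of 3338 and 3668 UMIs per nucleus.

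Microglia, the resident immune cells of the brain, had a higher Oprm1 level than most non-neuronal classes once doublets were removed. It was 21.4, 8.01 and 24.7 CPM in aplCoA and 29.3, 16.4 and 12.3 CPM in pplCoA (18.7 ± 7.98), every replicate above every OPC replicate. These were 205 UMIs in 178 of 2805 nuclei, and no nucleus held more than 3. The level depended on the removal of doublets: without it, microglia were at 45.0 CPM (25.7 to 57.7), MOL at 24.1, NFOL at 21.8, VLMC at 21.3 and ABC at 18.2 CPM, the last 4 of which had 2.75 CPM or less with it. After removal, the summed level of the neuron genes was 216 CPM in microglia with an Oprm1 UMI and 217 CPM in those without, and microglia held Slc17a7, the vesicular glutamate transporter VGluT1, at 20.6 CPM against 18.4 CPM in astrocytes. The part of neuronal RNA in the microglial level was not tested further. Ipcef1, the opposite-strand gene, was at 64.2 ± 3.96 CPM in microglia, close to its 73.0 ± 9.02 CPM in glutamatergic nuclei, and at 3.47 CPM in astrocytes and 2.45 CPM in OPC. In single nuclei pooled over replicates, 48.3% of microglia with an Oprm1 UMI had an Ipcef1 UMI, against 11.9% of those without, and the corresponding shares were 59.3% and 22.7% in glutamatergic nuclei. Whether the microglial Oprm1 UMIs came from Oprm1 or from Ipcef1 transcripts cannot be told apart here. Macrophages gave 35.8 ± 72.5 CPM from only 12 UMIs, with 1 replicate of 9 nuclei at 183 CPM, and in that replicate Ipcef1 was at 275 CPM.

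Oprk1 was the sparsest of the receptors, with 680 UMIs in 514 glutamatergic nuclei. Its glutamatergic level was 3.64, 2.40 and 3.27 CPM in aplCoA and 2.12, 1.01 and 0.962 CPM in pplCoA (2.23 ± 1.11). In GABAergic nuclei it was 0.783 ± 0.467 CPM, from 38 UMIs in 36 nuclei, and the replicates of the 2 classes overlapped. All other classes were at or under 0.548 CPM. No Oprk1 UMI was found in NFOL or ABC, which allows up to 0.971% of NFOL and 0.285% of ABC nuclei to yield a UMI at this depth, counting error alone considered, and sets no limit on the nuclei that carry the transcript. The share of glutamatergic nuclei with an Oprk1 UMI was 2.21%, and 0.488% after thinning.

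Oprd1 had a higher level in GABAergic than in glutamatergic nuclei, with no overlap of replicates. GABAergic nuclei had 18.1, 19.5 and 16.6 CPM in aplCoA and 20.5, 24.7 and 19.2 CPM in pplCoA (19.8 ± 2.77), from 855 UMIs in 505 nuclei. Glutamatergic nuclei had 16.0, 12.3 and 14.7 CPM in aplCoA and 14.3, 10.1 and 9.02 CPM in pplCoA (12.8 ± 2.77), and none of these replicates reached the lowest GABAergic one. The share of nuclei with a UMI ran the other way as sequenced, 13.6% of glutamatergic and 10.1% of GABAergic nuclei, and followed the level once nuclei were thinned, at 2.56% and 3.17%. Outside neurons Oprd1 was at or under 1.39 CPM.

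Oprl1 had its highest level outside neurons, in OPC, the dividing glial cells that give rise to oligodendrocytes. OPC had 22.6, 23.8 and 23.0 CPM in aplCoA and 17.2, 25.0 and 18.4 CPM in pplCoA (21.7 ± 3.13), from 331 UMIs in 307 of 3641 nuclei. GABAergic nuclei were at 5.46 ± 1.34 CPM and glutamatergic nuclei at 5.21 ± 1.48 CPM, which overlapped each other and did not reach the lowest OPC replicate. Among the later oligodendrocyte stages the level was 1.17 CPM in NFOL and 2.53 CPM in MOL, and astrocytes had 1.61 CPM. An Oprl1 UMI was found in 8.72% of OPC nuclei, 4.28% after thinning, and OPC with and without one held neuron genes at 474 and 498 CPM. OPC were 7.85% of nuclei and carried 17.7 ± 5.48% of all Oprl1 UMIs, against 66.0% in glutamatergic nuclei. The 60 cycling OPC nuclei, which formed a cluster led by Top2a, had 27.4 ± 27.0 CPM from 8 UMIs, and the 3581 others 21.6 ± 3.06 CPM.

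**Figure D1:**
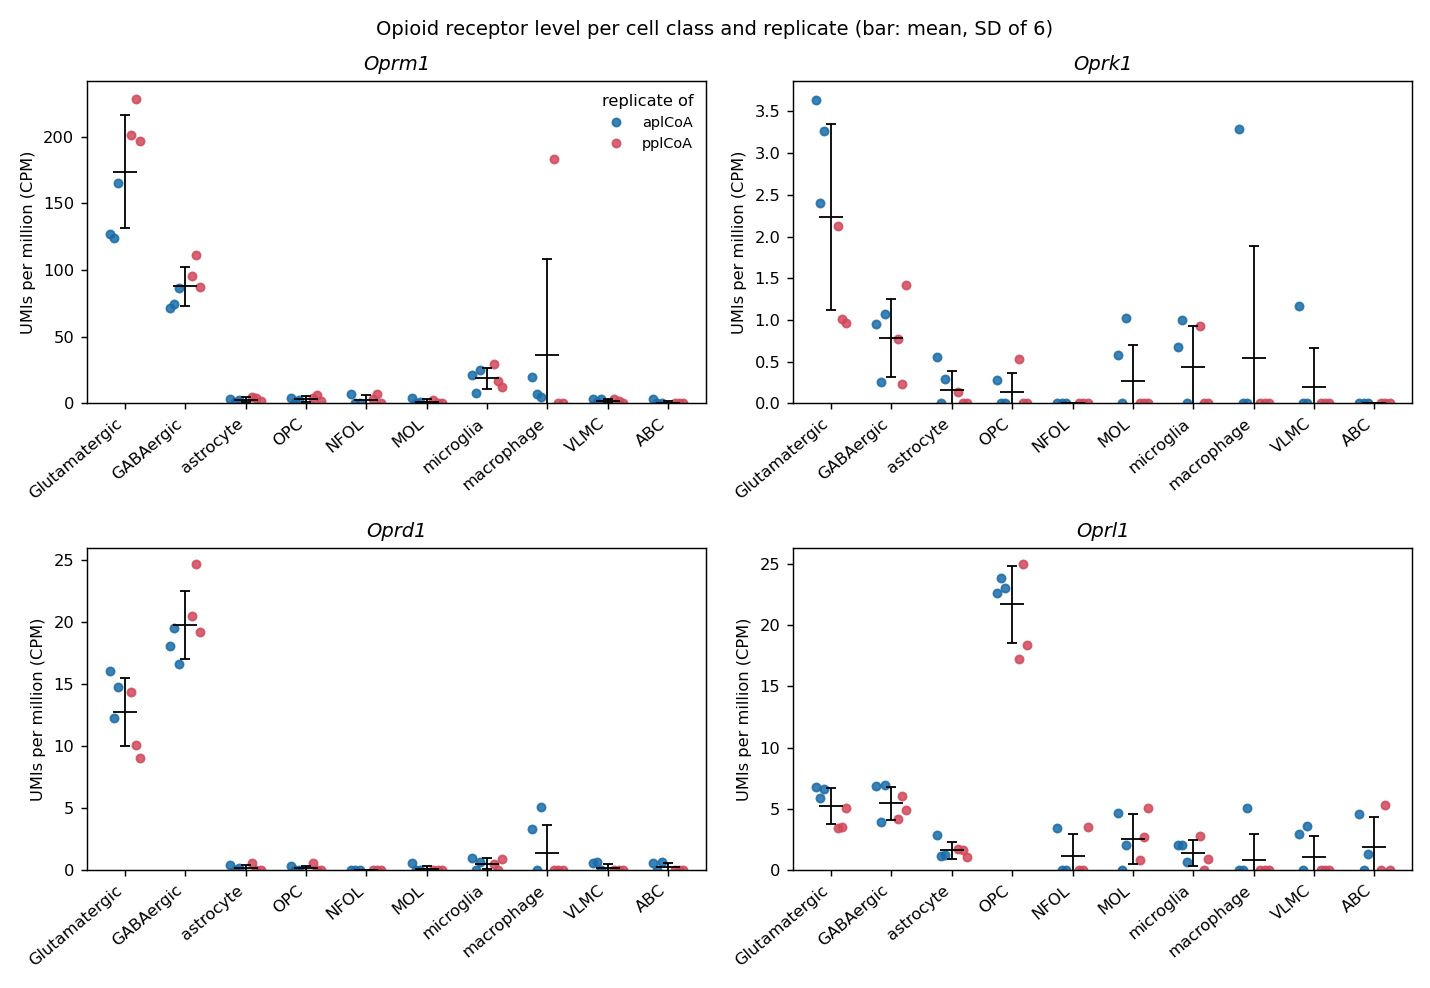
Level of each receptor (CPM, 1 panel per receptor, each with its own scale) by class of nuclei, with 1 point per replicate colored by domain and bars for the mean ± SD over 6 replicates, the bars cut at 0. Oprm1 and Oprk1 are highest in glutamatergic nuclei, Oprd1 in GABAergic nuclei and Oprl1 in OPC at 21.7 CPM, and a single macrophage replicate of 9 nuclei stands at 183 CPM for Oprm1.

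Most glutamatergic nuclei carried a UMI of at least 1 receptor, and few carried several. Of 20058 glutamatergic nuclei, 4819 (24.0%) had none, 12095 (60.3%) had 1 receptor, 2898 (14.4%) had 2, 239 (1.19%) had 3 and 7 had all 4. Of 5076 GABAergic nuclei, 2844 (56.0%) had none, 1946 (38.3%) had 1, 271 (5.34%) had 2 and 15 had 3. These counts follow the depth of each nucleus and include UMIs of free RNA.

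Within glutamatergic nuclei, the kind of vesicular glutamate transporter separated the receptors. Nuclei with a UMI of Slc17a7 and none of Slc17a6 (VGluT1-only, 12794 nuclei) were compared with nuclei with Slc17a6 (VGluT2) and no Slc17a7 (VGluT2-only, 2592 nuclei) from the same replicates, by edgeR's quasi-likelihood test with the replicate as a block, and 39.5% of the 16206 genes tested were called at an adjusted p under 0.05. All 4 receptors were called, 3 higher in VGluT2-only nuclei and 1 lower, against that high background. Markers of other cell types were higher there too, 3 of 3 tested of Cajal-Retzius-type cells (median log2 3.13) and 5 of 5 of intercalated-type cells (median 1.71). Of 6 tested markers of striatal projection neurons, 3 were higher and 2 lower (median 0.75). The part of such cells in the receptor differences was not tested.

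Oprk1 differed by the most. It was at 10.7, 8.28 and 8.77 CPM in VGluT2-only nuclei of aplCoA and at 13.3, 11.9 and 0 CPM in those of pplCoA (8.81 ± 4.71), where the 0 came from 26 nuclei. VGluT1-only nuclei were at 0.660 ± 0.342 CPM and nuclei with both transporters at 3.36 ± 1.73 CPM. The 2112 glutamatergic nuclei with a UMI of neither transporter (10.5%) are in none of these groups. The difference was 14.0-fold (log2 3.81, SE 0.29, adjusted p = 5.96e-08).

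Oprm1 went the other way. VGluT1-only nuclei were at 190 ± 38.2 CPM, nuclei with both at 136 ± 19.3 CPM and VGluT2-only nuclei at 95.2 ± 37.7 CPM. Within VGluT2-only nuclei, pplCoA replicate 3, with its 26 nuclei, was the highest at 168 CPM and the other 5 replicates lay between 61.6 and 97.8 CPM. The level was 2.29-fold lower in VGluT2-only nuclei (log2 −1.20, SE 0.11, adjusted p = 3.85e-07). Ipcef1 was lower there as well (log2 −1.47, SE 0.15, adjusted p = 1.27e-06), and its part in the Oprm1 difference was not tested.

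Oprl1 and Oprd1 differed less between the transporter kinds. Oprl1 was at 8.22 ± 2.58 CPM in VGluT2-only and 4.17 ± 0.878 CPM in VGluT1-only nuclei, 1.85-fold higher in the former (log2 0.88, SE 0.15, adjusted p = 2.1e-04). Oprd1 was at 15.0 ± 6.61 and 12.3 ± 2.17 CPM, and its difference of 1.24-fold (log2 0.31, SE 0.11, adjusted p = 0.0274) was lost when aplCoA replicate 1, aplCoA replicate 3 or pplCoA replicate 1 was left out (0.20 to 0.32, adjusted p 0.0577 to 0.326) and under 4 of 5 other settings. The calls of the other 3 receptors held in every leave-out and every other setting tried.

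GABAergic nuclei were grouped by at least 2 UMIs of a marker of an interneuron type, and Oprm1 varied widely among these groups. Lamp5 marks neurogliaform-type cells, Vip cells that mostly inhibit other interneurons, Sst cells that inhibit dendrites and Pvalb fast-spiking cells. Lamp5 nuclei (524) had 151, 135 and 180 CPM in aplCoA and 229, 297 and 238 CPM in pplCoA (205 ± 60.9), as high as VGluT1-only glutamatergic nuclei, with which they overlapped. Sst nuclei (662) had 63.7 ± 14.8 CPM and Vip nuclei (735) 36.3 ± 11.6 CPM. Each of these 3 groups was tested against the mean of the other 2 (edgeR, replicate as a block, 9168 genes tested, 30.8% called for Lamp5, 31.2% for Vip and 34.1% for Sst), and Oprm1 was the only receptor that passed the filter on low counts. It was 3.85-fold higher in Lamp5 nuclei (log2 1.95, SE 0.12, adjusted p = 1.97e-13) and 2.96-fold lower in Vip nuclei (log2 −1.57, SE 0.15, adjusted p = 1.76e-09), and both calls held in every leave-out. Ipcef1 moved the same way, by 2.30 in Lamp5 nuclei (adjusted p = 4.56e-13) and −2.03 in Vip nuclei (adjusted p = 3.02e-09) on the log2 scale, and its part in the Oprm1 differences was not tested. Sst nuclei were lower than the mean of the other 2 groups (log2 −0.38, SE 0.13, adjusted p = 0.0284), although their level lay above that of Vip nuclei. As each group was set against the other 2, the 3 contrasts depend on each other and are not separate findings. The Sst call was lost when aplCoA replicate 3, pplCoA replicate 1 or pplCoA replicate 2 was left out, over a leave-out range of −0.51 to −0.25.

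A rare GABAergic group with Foxp2 and Meis2, genes of the intercalated cell masses and of striatum-like neurons, had the highest Oprm1 level of any group. Its 43 nuclei, of which 40 had an Oprm1 UMI, held 157 UMIs and reached 388 to 584 CPM (474 ± 77.4), above every replicate of every other neuron group, and Ipcef1 was at 182 ± 84.9 CPM in them. The lowest counts were in pplCoA, where replicates 2 and 3 rest on 2 nuclei and 1 nucleus. The group carried Tshz1, a marker of intercalated cells, at 502 CPM and Pbx3 at 1544 CPM. Drd1, a listed marker of both intercalated cells and striatal projection neurons, was at only 1.62 CPM. Of the markers listed for striatal projection neurons alone, Ppp1r1b, Drd2 and Adora2a had no UMI. The group was set by genes that are no receptors, had too few nuclei per replicate for a test, and was not compared by one.

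Oprd1 followed a different division of the interneurons. Pvalb nuclei had 49.4 ± 39.3 CPM (0 to 89.8) over the replicates with nuclei, 30 UMIs in 16 of 32 nuclei. Of these nuclei, 1 was in aplCoA replicate 2 and 0 in pplCoA replicate 2. Sst nuclei had 12.1 ± 5.63 CPM, Lamp5 nuclei 1.85 CPM from 6 UMIs and Vip nuclei 0.914 CPM from 5 UMIs. Because 1 replicate had no nucleus with 2 Pvalb UMIs, the Pvalb group was also taken at 1 UMI, a choice made after seeing the data, and set against the mean of the other groups (24.7% of genes called). Oprd1 was then 11.1-fold higher in Pvalb nuclei (log2 3.47, SE 0.30, adjusted p = 3.13e-11, leave-out range 3.37 to 3.65) and Oprm1 3.86-fold lower (log2 −1.95, SE 0.27, adjusted p = 9.04e-07, leave-out range −2.62 to −1.73), where Ipcef1 differed by −2.13. GABAergic nuclei in no marker group, 3014 in all, had Oprd1 at 28.8 ± 6.34 CPM.

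Oprl1 and Oprk1 gave few counts in the interneuron groups. Oprl1 was at 7.79 ± 4.19 CPM in Sst, 4.12 CPM in Lamp5 and 2.56 CPM in Vip nuclei, which overlapped. Its mean of 35.1 ± 69.7 CPM in the Foxp2 Meis2 group came from 4 UMIs and 1 replicate at 177 CPM. Oprk1 was at or under 2.54 CPM in every single-marker GABAergic group, and the 38 nuclei that met the rule of several groups held 2 UMIs of it.

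**Figure D2:**
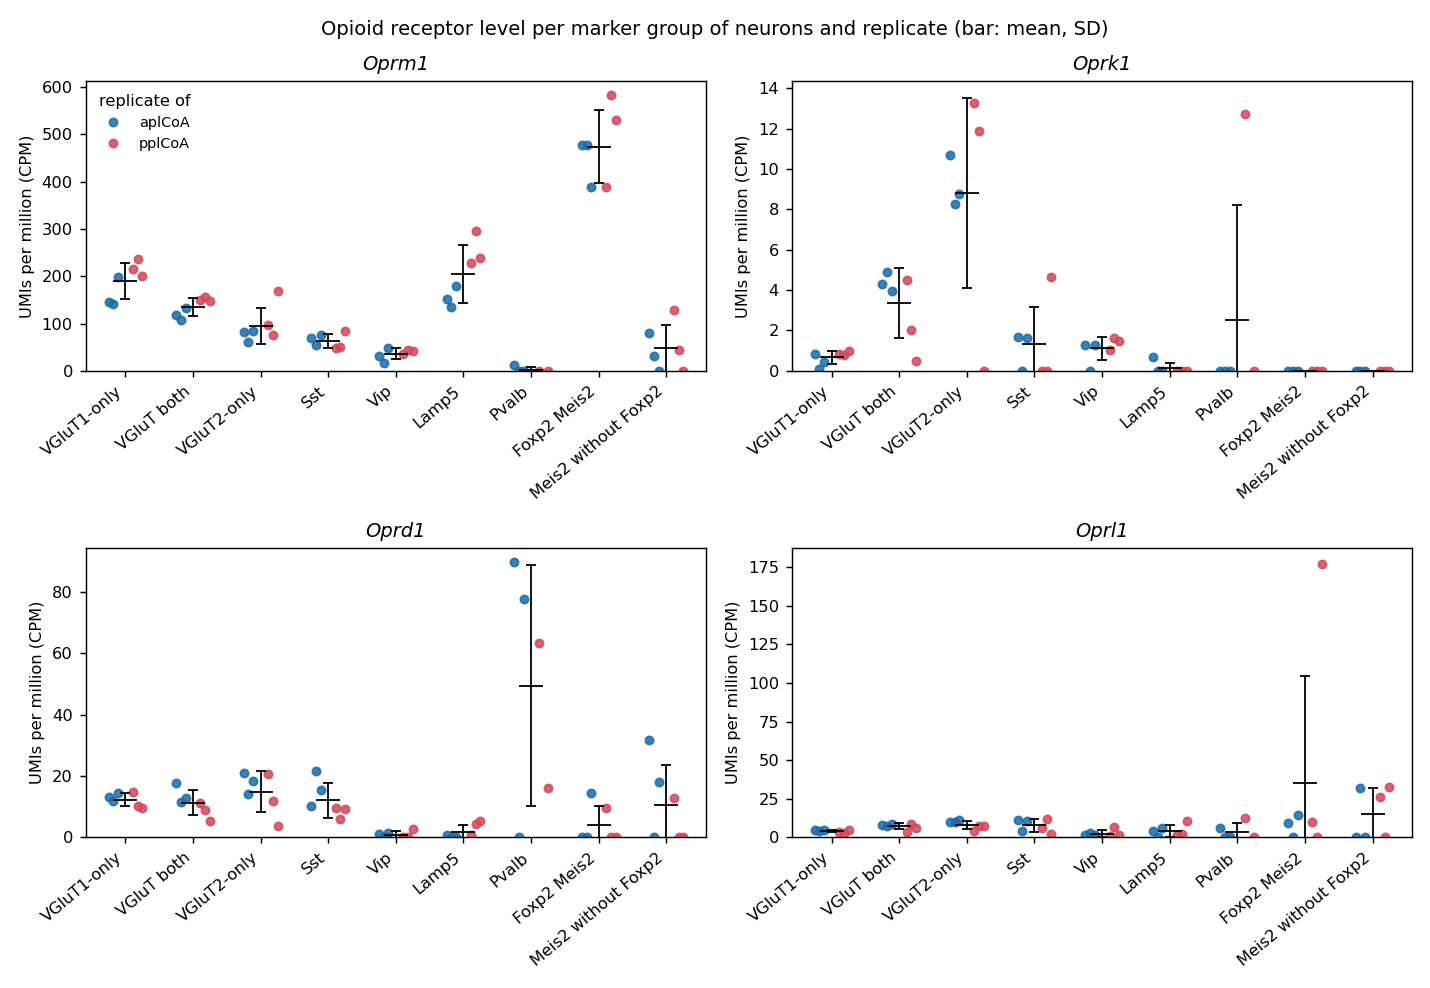
Level of each receptor (CPM, 1 panel per receptor) in glutamatergic nuclei by vesicular glutamate transporter and in GABAergic nuclei by marker group, 1 point per replicate colored by domain, bars for the mean ± SD over the replicates with nuclei, cut at 0. Oprm1 is highest in the 43 Foxp2 Meis2 nuclei, with Lamp5 and VGluT1-only nuclei next, while Oprk1 is highest in VGluT2-only nuclei and Oprd1 in Pvalb nuclei.

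Clusters of neurons, made without the 4 receptor genes among the variable genes, gave a finer view, here as a description with no test. Oprm1 was highest in GABAergic cluster 36, 172 nuclei led by Hcrtr2 and Kcns3, at 385 ± 64.2 CPM (303 to 480), with 383 CPM in aplCoA and 387 CPM in pplCoA. Glutamatergic cluster 33, led by Grp, followed at 270 ± 143 CPM, with 2 and 7 nuclei in aplCoA replicates 2 and 3. Clusters 7 (glutamatergic) and 6 (GABAergic) were at 235 ± 32.0 and 227 ± 54.6 CPM. Etv1 was also a leading gene of cluster 33, and the paper places its Etv1 type outside plCoA, in the posterior basomedial amygdala. Its Fign type, the paper holds, likely derives from the adjacent cortex-amygdala transition area. Nuclei of neighbouring tissue were not removed here, so glutamatergic levels and domain contrasts can include them. The lowest Oprm1 level was 27.7 ± 8.48 CPM in cluster 17, which had the highest Oprk1 level.

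Oprk1 was gathered in a few clusters. Cluster 17, 230 nuclei led by Pappa2 and Drd2, held 136 of the 680 glutamatergic Oprk1 UMIs, in 78 nuclei (37.7 ± 25.0 CPM, 0 to 69.8 over replicates). Cluster 2, led by Ebf1 and Meis1, was at 12.8 ± 11.2 CPM, with only 2 and 3 nuclei in pplCoA replicates 2 and 3. Cluster 5, led by Vwa5b1 and Prlr, was at 5.51 ± 3.93 CPM, and cluster 33 at 5.06 ± 4.08 CPM. Oprl1 was also high in cluster 5, at 9.87 ± 2.63 CPM, beside cluster 4 (Ebf2 and Npsr1) at 10.3 ± 7.56 CPM and cluster 17 at 9.06 CPM. The mean of cluster 4 is over the replicates with nuclei, as pplCoA replicate 2 had 0 and pplCoA replicate 3 had 1.

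Oprd1 stood out in 1 GABAergic cluster. Cluster 31, 281 nuclei led by Mctp2 and Unc5b, had 375 Oprd1 UMIs in 180 nuclei and 152 ± 38.0 CPM (102 to 216), and held Pvalb at 24.3 CPM. The next clusters were 19, led by Lhx6 and Crhbp, at 28.4 ± 4.01 CPM and glutamatergic cluster 16 at 24.9 ± 3.24 CPM. The lowest replicate of cluster 31 lay above every replicate of both.

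**Figure D3:**
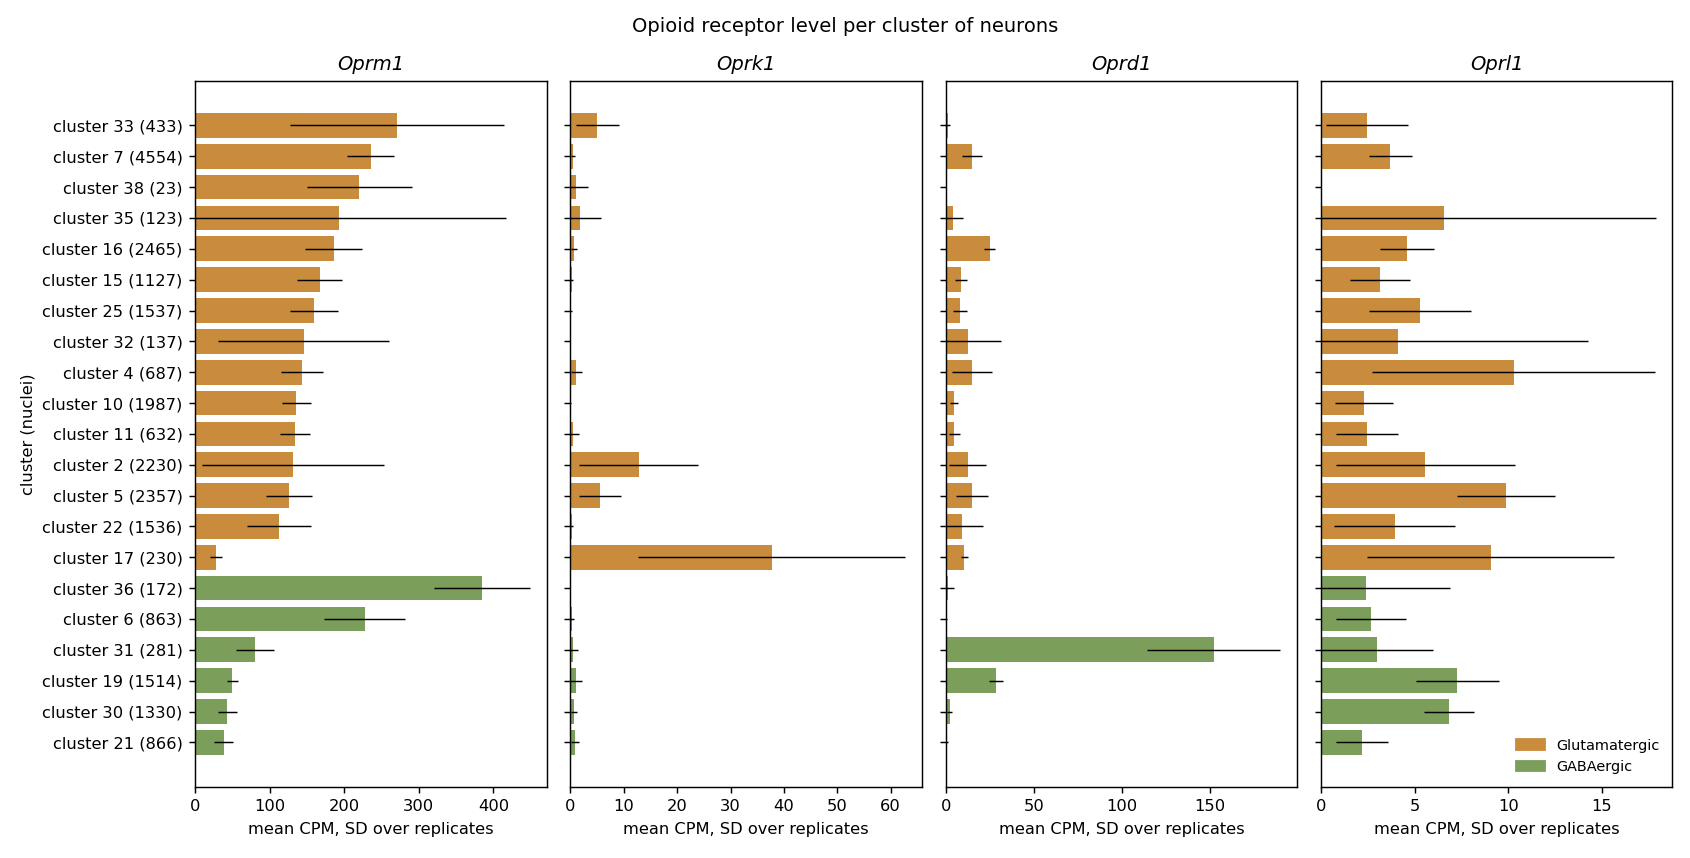
Mean level over the replicates with nuclei (CPM, 1 panel per receptor with its own scale) as a bar for each neuronal cluster, glutamatergic and GABAergic clusters colored apart, with lines for the SD over those replicates, cut at 0, and the number of nuclei beside each cluster. Single clusters lead for Oprk1 (cluster 17, 37.7 CPM) and Oprd1 (cluster 31, 152 CPM), while Oprm1 is spread over most glutamatergic clusters.

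Single subtype genes were also used, without clusters. For each gene, nuclei with and without a UMI of it were compared within a replicate, as a description, and nuclei with a UMI of any gene tend to be deeper. In GABAergic nuclei Oprm1 was higher with Lamp5 (191 against 63.4 CPM, median log2 ratio 1.55, above 0 in 6 of 6 replicates), Nos1 (135 against 74.3 CPM, 0.90, 6 of 6), Id2 (0.89, 6 of 6) and Ndnf (0.78, 6 of 6), markers of the neurogliaform lineage or of long-range cells. It was lower with Sst (69.0 against 94.5 CPM, −0.51, above 0 in 0 of 6) and Lhx6 (−0.38, 1 of 6). In glutamatergic nuclei Oprm1 was higher with Slc17a7 (0.59, 5 of 6), Zfp536 (0.28, 5 of 6) and Ccbe1 (0.17, 6 of 6), and lower with Slc17a6 (122 against 187 CPM, −0.67, 0 of 6) and Pbx3 (−0.44, 0 of 6).

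Oprk1 differed from Oprm1 in the direction seen with both transporters and with Pbx3 in glutamatergic nuclei. It was higher with Gulp1 (6.93 against 1.53 CPM, median log2 ratio 2.29, 6 of 6), Slc17a6 (5.08 against 1.19 CPM, 2.18, 5 of 6), Pbx3 (3.99 against 1.16 CPM, 1.69, 6 of 6) and Baiap3 (1.36, 6 of 6). It was lower with Slc17a7 (1.19 against 6.91 CPM, −2.69, 0 of 6) and Chrdl1 (−2.29, 0 of 6). Nuclei with an Oprm1 UMI had 1.55 CPM of Oprk1 and those without 4.10 CPM (−1.44, 1 of 6).

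Oprd1 in GABAergic nuclei was higher with Lhx6, a transcription factor of interneurons from the medial ganglionic eminence, at 39.0 against 14.5 CPM (1.34, 6 of 6), and lower with Sst, a marker of the same lineage, at 13.9 against 21.9 CPM (−0.57, 1 of 6). It was lower in nuclei with Cnr1, a cannabinoid receptor, at 2.88 against 33.0 CPM (−3.69, 0 of 6), and in nuclei with Ndnf, at 2.29 against 25.0 CPM (−3.18, 0 of 6), and differed less by Cck, at 16.4 against 20.9 CPM (−0.27, 1 of 6). Its level was 19.6 CPM in nuclei with an Oprm1 UMI and 19.7 CPM in those without (0.09, 3 of 6), whereas Oprm1 was at 65.2 CPM in nuclei with an Oprd1 UMI and 91.1 CPM in those without (−0.58, 0 of 6), with 39 nuclei with an Oprd1 UMI in the smallest replicate. In glutamatergic nuclei Oprd1 was higher with Grik3 (0.48, 6 of 6) and lower with Chrdl1 (6.18 against 13.3 CPM, −1.34, 1 of 6). Oprl1 was higher with Slc17a6 (7.65 against 4.46 CPM, 0.74, 6 of 6) and Baiap3 (0.67, 6 of 6) and lower with Slc17a7 (4.66 against 7.29 CPM, −0.81, 1 of 6), and among GABAergic nuclei it was higher with Lhx6 (0.63, 4 of 6) and Sst (0.51, 5 of 6).

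Across 17 cell groups, the genes whose mean log2 level was most like that of a receptor were found by Pearson's r, as a description. For Oprm1 they were Gm15155 (0.954), Ptchd1 (0.936), Begain (0.914), Kcnip4 and Syt5 (0.905 each). For Oprk1 they were Uncx (0.911), 3100003L05Rik (0.905), Gm29296 (0.891), Barhl2 and Vwa5b1 (0.889 each). For Oprd1 they were Gm30332 (0.938), Il1rapl2 (0.935), Phf24 (0.912), Cntnap5a (0.905) and Gm31282 (0.900), and for Oprl1 Tmem255a (0.899), Clec14a (0.832), Kcnk10 (0.826), Col28a1 (0.822) and Chrm2 (0.818). Between the receptors themselves r was 0.351 to 0.647, and groups from 1 library share its depth.

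The study set the 2 domains apart, and in glutamatergic nuclei 3 of the 4 receptors differed between them: Oprk1 and Oprl1 were higher in aplCoA, and Oprm1 was higher in pplCoA. The domains were compared over 3 against 3 replicates by edgeR's quasi-likelihood test, in which 16.7% of 18838 genes were called, and log2 differences are given as aplCoA minus pplCoA. The replicates are separate pools, so that p-values measure the spread between pools.

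Oprm1 was lower in aplCoA. It was at 139 ± 22.7 CPM in aplCoA and 209 ± 17.2 CPM in pplCoA (SD, n = 3), and every aplCoA replicate lay under every pplCoA replicate. The difference was 1.60-fold (log2 −0.68, SE 0.11, adjusted p = 0.00534) and was called in all 6 leave-outs (−0.81 to −0.59) and all 12 other settings. The share of glutamatergic nuclei with an Oprm1 UMI was 63.7% in aplCoA and 79.6% in pplCoA, at median depths of 11362 and 13432 UMIs, and 22.8 ± 3.20% and 33.1 ± 2.21% after thinning. Ipcef1 was at 67.1 ± 8.49 CPM in aplCoA and 78.8 ± 5.44 CPM in pplCoA, 73.5 CPM in its highest aplCoA and 73.7 CPM in its lowest pplCoA replicate, with a log2 difference of −0.32 that was not called (adjusted p = 0.0705).

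Oprk1 and Oprl1 were higher in aplCoA. Oprk1 was at 3.10 ± 0.635 CPM in aplCoA and 1.36 ± 0.657 CPM in pplCoA (2.08-fold, log2 1.06, SE 0.29, adjusted p = 0.0342). Oprl1 was at 6.42 ± 0.455 and 3.99 ± 0.897 CPM (1.53-fold, log2 0.62, SE 0.16, adjusted p = 0.0311). For both genes, all aplCoA replicates lay above all pplCoA replicates. Both calls were lost in 5 of 6 leave-outs, where the Oprk1 difference was 0.88 to 1.58 and the Oprl1 difference 0.51 to 0.80, and only leaving out pplCoA replicate 1 kept the former (adjusted p = 7.43e-04) and pplCoA replicate 3 the latter (adjusted p = 0.018). Oprd1 was at 14.3 ± 1.92 and 11.2 ± 2.81 CPM, a difference that was not called (log2 0.27, SE 0.16, 95% interval −0.05 to 0.59, adjusted p = 0.298) and that passed when pplCoA replicate 1 was left out (0.49, adjusted p = 0.0165).

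The domains also differed in which glutamatergic nuclei they held. VGluT2-only nuclei were 18.1 ± 3.31% of glutamatergic nuclei in aplCoA and 2.87 ± 2.57% in pplCoA, and VGluT1-only nuclei 54.2 ± 4.72% and 81.6 ± 5.39%. Cluster 2, in which Oprk1 was high, was 15.9 ± 3.96% of glutamatergic nuclei in aplCoA and 1.43% in pplCoA, and cluster 5, in which Oprk1 and Oprl1 were high, was 15.7% and 3.72%. Cluster 7, in which Oprm1 was high, was 15.6% and 33.5%.

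The domain contrast was therefore also taken within VGluT1-only nuclei, where 6.61% of genes and none of the receptors were called. Oprm1 was at 162 ± 31.4 CPM in aplCoA and 218 ± 18.3 CPM in pplCoA (log2 −0.47, SE 0.12, adjusted p = 0.0513), the same direction as over all glutamatergic nuclei, and it passed when aplCoA replicate 3 (adjusted p = 0.0104) or pplCoA replicate 1 (adjusted p = 0.0439) was left out. Oprk1 was at 0.451 and 0.868 CPM (log2 −0.72, adjusted p = 0.392), opposite in sign to the contrast over all glutamatergic nuclei. Oprl1 was at 4.63 and 3.72 CPM (log2 0.30, adjusted p = 0.427) and Oprd1 at 13.2 and 11.5 CPM (log2 0.15, adjusted p = 0.63). Within VGluT2-only nuclei Oprk1 was at 9.25 ± 1.28 CPM in aplCoA and 8.38 ± 7.29 CPM in pplCoA, where 2 replicates had 39 and 26 nuclei, and no test was run. The part that the makeup of the class had in the contrast was not tested.

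In GABAergic nuclei 7.23% of 14433 genes were called, and Oprm1 was the only receptor among them. It was at 77.5 ± 7.84 CPM in aplCoA and 97.9 ± 12.0 CPM in pplCoA, 1.31-fold lower in aplCoA (log2 −0.39, SE 0.10, adjusted p = 0.0267), with all aplCoA replicates under all pplCoA replicates. Ipcef1 was at 29.4 and 27.0 CPM in the same nuclei, a log2 difference of 0.06 (adjusted p = 0.876). The call was lost when aplCoA replicate 1, aplCoA replicate 2 or pplCoA replicate 2 was left out (adjusted p 0.0791 to 0.162) and when either library of aplCoA replicate 1 stood for it alone. Oprd1 was at 18.1 and 21.5 CPM (log2 −0.31, adjusted p = 0.219) and Oprl1 at 5.90 and 5.01 CPM (log2 0.30, adjusted p = 0.56), neither called, and Oprk1 was under the filter on low counts. Vip nuclei, low in Oprm1, were 11.6 ± 2.52% of GABAergic nuclei in aplCoA and 17.4 ± 3.06% in pplCoA, and Lamp5 nuclei, high in Oprm1, 11.2% and 9.55%, where the replicates overlapped. The part of these shares in the Oprm1 contrast was not tested. Lamp5 nuclei themselves had 155 ± 23.2 CPM in aplCoA and 255 ± 36.8 CPM in pplCoA, with no overlap and no test.

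**Figure D4:**
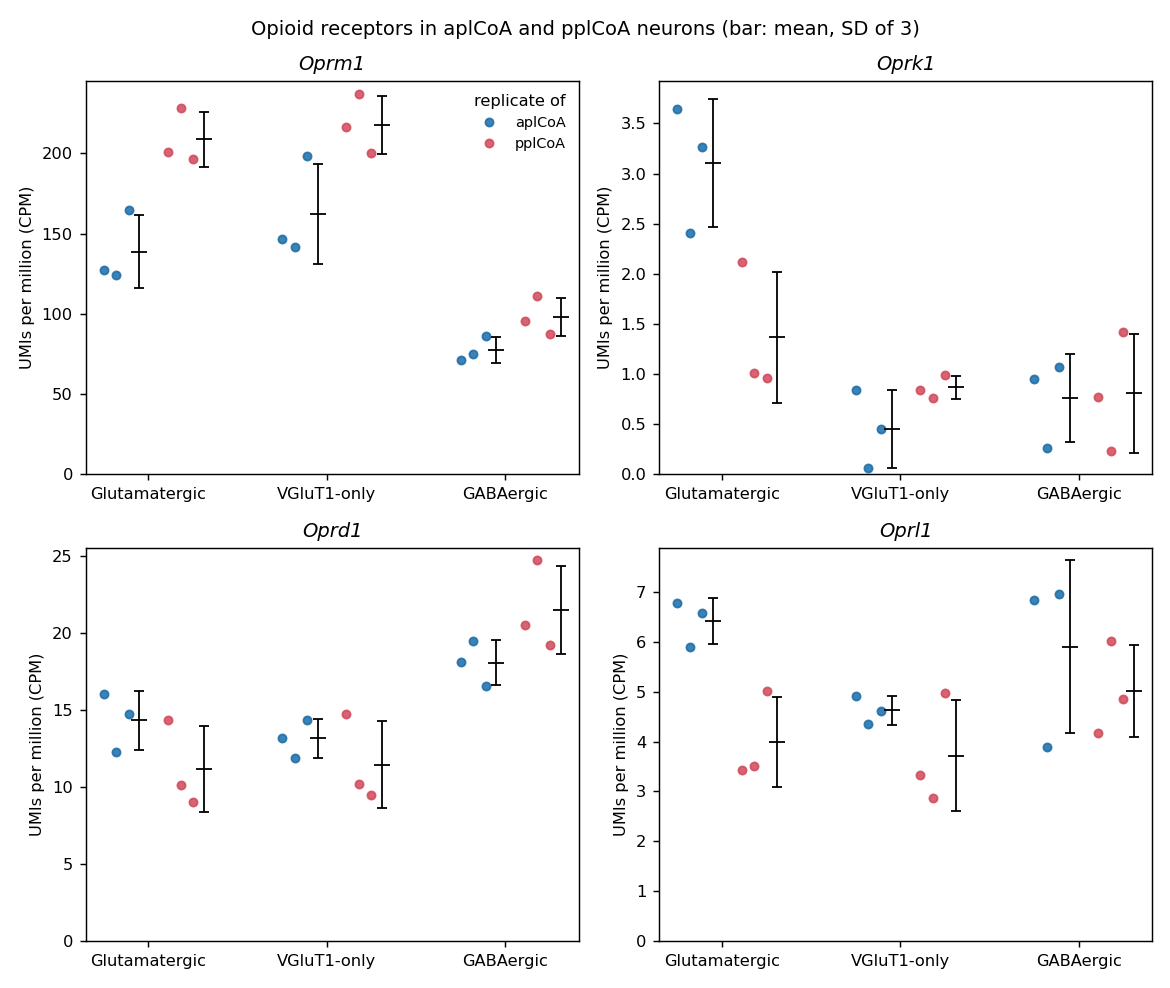
Level of each receptor (CPM) in aplCoA and pplCoA, 1 point per replicate with the mean ± SD over 3 replicates, for glutamatergic, VGluT1-only and GABAergic nuclei, 1 panel per receptor with its own scale. Oprm1 is higher in all 3 pplCoA replicates than in any aplCoA replicate in glutamatergic (139 against 209 CPM) and GABAergic nuclei (77.5 against 97.9 CPM), while Oprk1 and Oprl1 are higher in all 3 aplCoA replicates of glutamatergic nuclei.

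Within single clusters with at least 50 nuclei in every replicate, a contrast added after seeing the data, Oprm1 was lower in aplCoA in all 5 clusters and called in 2. The 5 clusters came from the same 6 replicates and are not separate observations. How many of all genes had 1 sign in all 5 clusters was not counted. Cluster 6, GABAergic and rich in Lamp5 (Kit and Dkk2), had 185 ± 25.8 CPM in aplCoA and 270 ± 36.2 CPM in pplCoA (log2 −0.58, SE 0.12, adjusted p = 0.00301, 3.48% of genes called), and the call held in all 6 leave-outs, while Ipcef1 in cluster 6 differed by 0.10 (adjusted p = 0.863). Cluster 30, GABAergic and led by Npas1 and Adarb2, had 33.9 ± 5.70 and 52.7 ± 9.98 CPM (log2 −0.66, SE 0.18, adjusted p = 0.0497, 4.31% called), a call lost in 4 of 6 leave-outs and kept without aplCoA replicate 3 or pplCoA replicate 1, and Ipcef1 differed there by −0.64 (adjusted p = 0.266). Of 3 intercalated-type markers tested in cluster 30, 2 were also lower in aplCoA (median log2 −0.69). The part of intercalated-type cells in its Oprm1 difference was not tested. The differences were −0.41 in cluster 16 (adjusted p = 0.232, 0.132% called; −0.65, adjusted p = 0.0348, without aplCoA replicate 3), −0.29 in cluster 19 (adjusted p = 0.422, 1.48% called) and −0.20 in cluster 7 (adjusted p = 0.408, 1.14% called). No other receptor was called in any of these clusters.

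Whether a receptor's domain contrast differed between glutamatergic and GABAergic nuclei was tested with an interaction term, for which 3.46% of 18308 genes and no receptor were called. The difference of the contrasts, glutamatergic minus GABAergic, was −0.26 for Oprm1 (SE 0.08, adjusted p = 0.112), 1.03 for Oprk1 (adjusted p = 0.491), 0.61 for Oprd1 (SE 0.19, adjusted p = 0.114) and 0.37 for Oprl1 (adjusted p = 0.57). For Oprd1, whose contrast was positive in one class and negative in the other, it passed when pplCoA replicate 1 was left out (0.89, adjusted p = 0.00316).

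In the non-neuronal classes no domain difference was called for a receptor that passed the filter on low counts. Oprl1 in OPC was at 23.2 ± 0.617 CPM in aplCoA and 20.2 ± 4.19 CPM in pplCoA (log2 0.16, 95% interval −0.22 to 0.53, adjusted p = 0.747, 4.35% of genes called), and Oprm1 in astrocytes differed by −0.57 (adjusted p = 0.685, 0.429% called). In microglia edgeR called 0% of 9794 genes, of which 399 had an unadjusted p under 0.05, and Oprm1 differed by −0.12 (adjusted p = 0.993).

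**Figure D5:**
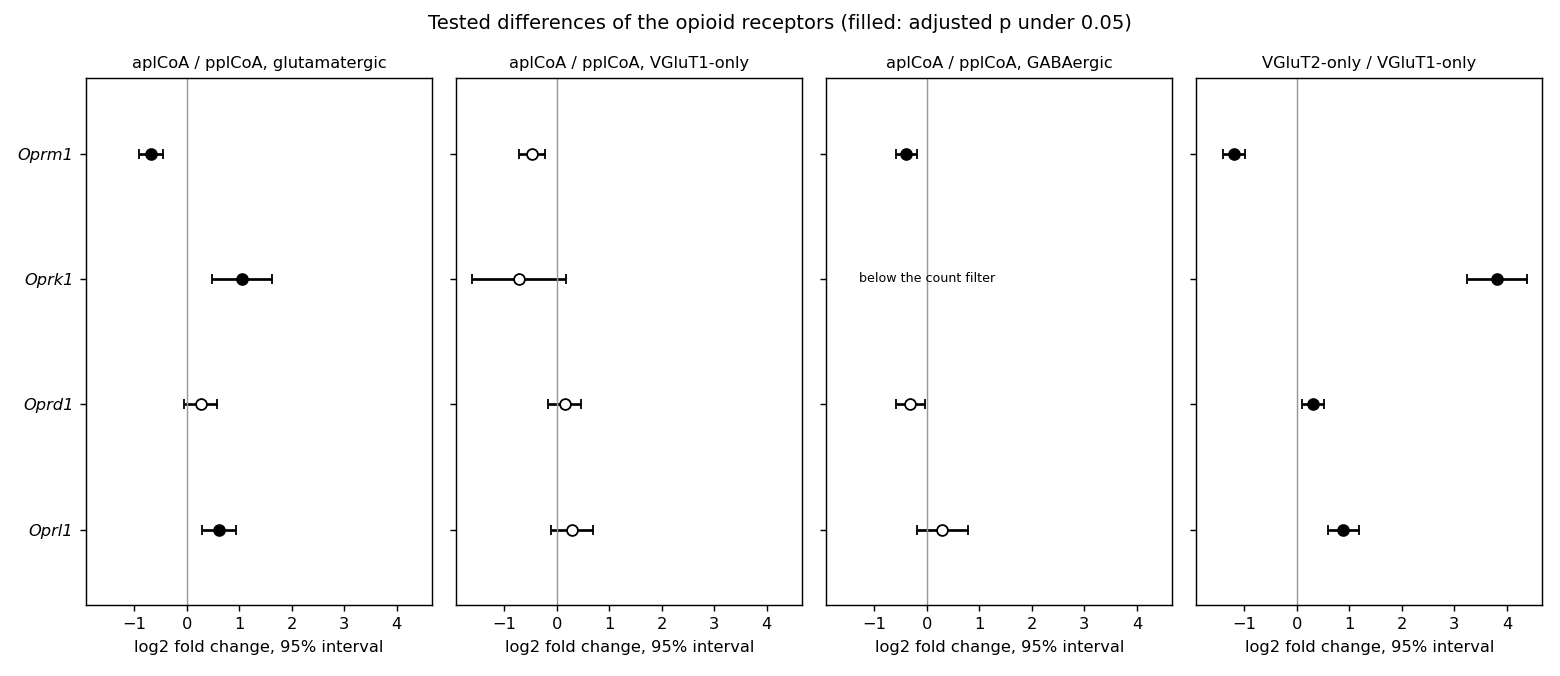
Log2 difference of each receptor with its 95% interval, 1 panel each for aplCoA over pplCoA in glutamatergic, VGluT1-only and GABAergic nuclei and for VGluT2-only over VGluT1-only nuclei, with points filled where the adjusted p was under 0.05. The difference of Oprk1 between transporter kinds (3.81) lies furthest from 0, and the domain differences lie between −0.72 and 1.06.

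The precursors of the opioid peptides were also measured in these nuclei. Penk was highest in Vip nuclei at 97.2 ± 33.9 CPM, a group with little Oprm1. The few Pvalb nuclei had still less Oprm1, at a mean of 2.39 CPM over the replicates with nuclei. Penk was at 89.4 ± 92.3 CPM in the Foxp2 Meis2 group, 62.7 ± 37.7 CPM in ABC and 5.81 ± 4.69 CPM in glutamatergic nuclei. Pnoc, the nociceptin precursor, was highest in Lamp5 nuclei at 85.8 ± 26.0 CPM, with 50.1 ± 14.8 CPM in Vip nuclei and 0.746 CPM in glutamatergic nuclei. Pdyn was at or under 0.685 CPM and Pomc at or under 1.34 CPM in every group. Between domains, Penk was higher in aplCoA in glutamatergic nuclei (log2 1.95, SE 0.42, adjusted p = 0.0128) and within VGluT1-only nuclei (log2 1.68, adjusted p = 0.0307), and Pnoc was higher in aplCoA in GABAergic nuclei (log2 0.67, SE 0.12, adjusted p = 0.00327), while Penk in GABAergic nuclei was at a log2 difference of 0.61 (adjusted p = 0.0859). Marker lists of cell types that can carry Penk moved with it in glutamatergic nuclei, where 4 of 5 intercalated-type markers (median log2 1.75) and 3 of 6 markers of striatal projection neurons (median 0.75) were higher in aplCoA beside 16.7% of all genes called, and in VGluT1-only nuclei, where 2 of 5 (median 0.95) and 1 of 5 (median 0.41) were, beside 6.61%. Drd1 is in both lists. Rgs9, a listed marker of striatal projection neurons, is also counted among the opioid-signaling genes below. These markers also went with the transporter kind. In VGluT2-only against VGluT1-only nuclei 5 of 5 intercalated-type markers were higher (median 1.71), beside 39.5% of all genes called. Of 6 tested markers of striatal projection neurons, 3 were higher and 2 lower there (median 0.75). A higher list thus does not show that such cells were present, and their part in the Penk and receptor differences was not tested. Between interneuron groups Penk differed by 4.23 in Vip, −2.97 in Lamp5 and −1.26 in Sst nuclei, and Pnoc by 1.51 in Lamp5, 0.50 in Vip and −2.01 in Sst nuclei on the log2 scale.

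Of 38 genes that make, carry or end the opioid signal, 37 were tested between the domains in glutamatergic nuclei, and 5 were higher and 8 lower in aplCoA, beside 16.7% of all genes called. Their median log2 difference was −0.02, against 0.0026 over all genes tested. Those with the lowest adjusted p were the calcium-sensitive adenylyl cyclases Adcy1 (−0.96, adjusted p = 0.0036) and Adcy8 (−0.66, adjusted p = 0.0037), the regulator of G protein signaling Rgs9 (1.00, adjusted p = 0.0072), beta-arrestin 1, Arrb1 (0.44, adjusted p = 0.0081), and the peptide-processing enzyme Cpe (−0.38, adjusted p = 0.0082). By role, the higher and lower genes were 1 and 0 of 4 peptide precursors, 0 and 1 of 3 processing enzymes, 1 and 0 of 5 G proteins, 2 and 2 of 13 regulators, 0 and 2 of 5 effector channels and 1 and 3 of 7 cyclases. Rgs9 was also on the list of markers of striatal projection neurons. In GABAergic nuclei Pnoc was the 1 gene higher in aplCoA and 0 of the 34 tested were lower, beside 7.23% of all genes called.

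The same 38 genes were also read between transporter kinds and interneuron groups, where more of all genes were called as well. In VGluT2-only against VGluT1-only nuclei 9 of 35 tested were higher and 12 lower, beside 39.5% of all genes called, with Rgs9 higher by 2.05, Gnai2 by 1.08 and Arrb1 by 0.73 and Adcy1 and Adcy9 differing by −1.11 and −1.01. The GIRK channel genes Kcnj6 (−0.55) and Kcnj9 (−0.53) were lower there. In Lamp5 nuclei 10 of 29 were higher and 10 lower (30.8% of all genes called), and the GIRK genes Kcnj3 (0.61), Kcnj6 (0.68) and Kcnj9 (0.66) were higher, as were Adcy1 (1.77) and Adcy8 (1.80), while Pcsk1 (−2.60), Pcsk2 (−1.53) and Adcy2 (−1.99) were lower. In Vip nuclei 11 of 29 were higher and 7 lower (31.2% of all genes called), led by Pcsk1 (2.07), Pcsk2 (1.68), Adcy2 (1.63) and Gnai1 (1.03), and of the GIRK genes Kcnj3 was higher (0.56) while Kcnj6 was at −0.03 and Kcnj9 at 0.26, neither called. In Sst nuclei 8 of 29 were higher and 12 lower (34.1% of all genes called), with Rgs20 (1.63) and Cacna1a (0.59) higher and Kcnj3 (−1.17), Kcnj6 (−0.65) and Kcnj9 (−0.93) lower.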

How the data were processed

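Single-nucleus libraries were made with the 10x 3' v3.1 kit. The authors aligned reads to mm10 and counted UMIs of exons and introns per gene and barcode (Cell Ranger 5.0.0, per the submitters' processing notes), and the deposited tables hold these raw counts for all barcodes, empty droplets included, with 50812605 to 129624583 UMIs per library in 7 libraries. The 2 libraries of aplCoA replicate 1 were summed.

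Barcodes with at least 1000 genes were kept (52201), then those within 5 median absolute deviations above the median UMIs (51538) and within 5 interquartile ranges above the upper quartile of mitochondrial and ribosomal percentages (50535), and the 4123 with the highest Scrublet doublet scores, 1% per 1000 nuclei, were removed, leaving 46412 nuclei. Nuclei were clustered on Pearson residuals of 5000 variable genes without the receptors, 50 components and Leiden at resolution 1 (scanpy 1.11.5, igraph 0.11.9, Python 3.11.15), and clusters were named by markers. A mixed cluster was split by at least 5 UMIs of neuron genes, a choice made after seeing the data, as were the Pvalb group at 1 UMI, the contrasts within clusters and the values of Ipcef1.

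UMIs were summed per replicate and class and tested with edgeR 4.0.16 (R 4.3.3; filterByExpr, TMM, quasi-likelihood test, Benjamini-Hochberg over all genes tested, called at an adjusted p under 0.05), with SE taken from the F statistic and 95% intervals from the SE. Alternatives were a likelihood ratio test, DESeq2 1.42.0, a 10% detection floor, no filter, a replicate block, other nucleus filters, classes and clusterings, and leaving out each replicate. The test was checked on simulated counts. Shares of nuclei with a UMI were recomputed after thinning to 2000 UMIs, leaving out shallower nuclei. A count of 0 was taken to allow 3 counts, and such limits cover counting error only. Deviations of same-numbered replicates of the 2 domains had correlations of 0.089, 0.0076 and 0.072 in glutamatergic and 0.015, −0.095 and −0.00035 in GABAergic nuclei. Those of differently numbered replicates ran from −0.126 to 0.082 and from −0.126 to 0.122. With 3 replicates per domain these values cannot decide whether numbers share a batch, and the main tests between domains did not pair replicates.

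The receptors, lists and tests were chosen with earlier results of these data known. Named pathway genes were the peptides and the 5 others with the lowest adjusted p per comparison, plus GIRK channel genes chosen after their values were seen. Genes most like a receptor were the 5 with the highest r among genes with at least 5 CPM in some group, and co-detected genes the 4 highest and 2 lowest of a fixed list, some with their ratio only and 1 not reported here, plus Sst for Oprd1 and Oprd1 for Oprm1, chosen after their values were seen. No sequences are shown.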

Additional observations from a re-analysis of the deposited data

Results flagged for a closer look

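There were 7 of the 38 genes tested from the opioid signaling lists with a domain difference (aplCoA minus pplCoA) that was not the same in glutamatergic and GABAergic nuclei by the interaction term of edgeR's quasi-likelihood test, which called 3.46% of 18308 genes. The difference of the log2 contrasts, glutamatergic minus GABAergic, was −0.95 for Adcy1 (adjusted p = 0.00187), −0.68 for Adcy8 (adjusted p = 0.0381) and −0.35 for Cpe (adjusted p = 0.0277). It was 0.95 for Rgs9 (adjusted p = 0.0215), 0.61 for Arrb1 (adjusted p = 0.0145), 0.53 for Gnai2 (adjusted p = 0.0493) and 0.42 for Adcy2 (adjusted p = 0.0459). None of the 4 receptors met this test.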

How the results depend on the processing

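Over all receptor values under all alternatives, 291 kept their direction and side of the threshold, 34 lost it, 5 gained it and 3 reversed; where a call changed, the cause was not tested. The domain difference of Oprm1 in glutamatergic nuclei, the Oprm1, Oprk1 and Oprl1 differences between transporter kinds, and those of Oprm1 in Lamp5 and Vip nuclei kept their call under every alternative run. In glutamatergic nuclei a 10% detection floor called 2031 genes and 1 receptor, with fewer genes tested. Oprl1 was not called with library 1 of aplCoA replicate 1 alone (0.55) or with classes set by marker UMIs (0.56), nor Oprk1 with library 2 alone (1.16). In GABAergic nuclei, library 1 alone called 293 genes and 0 receptors (Oprm1 −0.35) and library 2 alone 0 receptors (Oprm1 −0.45). Oprd1 between transporter kinds was not called under DESeq2 (0.26), with no filter (0.29), at 2 UMIs (0.28) or without the block (0.39). In Sst nuclei 0 receptors were called under DESeq2 and without the block, and 3 with no filter, as in Vip nuclei. Without doublet removal, Oprm1 was at 45.0 CPM in microglia, 24.1 in MOL, 21.8 in NFOL, 21.3 in VLMC and 18.2 in ABC (18.7, 1.25, 2.75, 1.98 and 0.574 CPM with it), and Oprd1 at 2.18 CPM in microglia, 2.23 in macrophages, 2.37 in MOL, 1.44 in NFOL, 1.36 in VLMC, 2.63 in ABC and 0.375 in OPC, Oprl1 at 2.27 in microglia and 1.92 in VLMC, and Oprk1 at 0.912 in MOL and 1.59 in macrophages, while neuronal levels of all 4 stayed within 1 SD.

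Leaving out 1 replicate at a time, the ranges were as follows. In glutamatergic nuclei 1293 to 4249 genes and 1 to 3 receptors were called, and differences were 0.88 to 1.58 for Oprk1, 0.14 to 0.49 for Oprd1 and 0.51 to 0.80 for Oprl1. In GABAergic nuclei 416 to 1140 genes and 0 to 1 receptors were called (Oprm1 −0.49 to −0.29). In VGluT1-only nuclei it was 0 to 2252 genes and 0 to 1 receptors (Oprm1 −0.63 to −0.39), and for the interaction 239 to 1309 genes and 0 to 1 receptors (Oprd1 0.46 to 0.89). Oprd1 between transporter kinds was 0.20 to 0.34, and Sst gave 0 to 1 receptors (Oprm1 −0.51 to −0.25). In cluster 16 the Oprl1 difference of 0.03 reversed without aplCoA replicate 1 (−0.34), pplCoA replicate 1 (−0.18) or pplCoA replicate 2 (−0.04), within −0.34 to 0.31.

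With the replicate number as a block, 3055 genes and 3 receptors were called in glutamatergic nuclei (Oprm1 −0.69, Oprk1 1.10, Oprd1 0.28, Oprl1 0.62), 931 genes in GABAergic nuclei (Oprm1 −0.39, adjusted p = 0.0368) and 788 in VGluT1-only nuclei (Oprm1 −0.48, adjusted p = 0.0814), and no receptor's call changed. Oprk1 had at most 680 UMIs in a class, which limits the precision of its tests.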
